A study of Mus musculus with 8 samples.

Results

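The BCL2 family of apoptosis genes was described in mammary tumours of mice with polyglutamine-expanded or normal-length huntingtin. The members were chosen by name, namely the guardians Bcl2, Bcl2l1 and Mcl1, the effectors Bax and Bak1, and the BH3-only genes Bcl2l11, Bbc3, Pmaip1, Bid and Bad. A member was read where the platform annotation gave a probe set that gene symbol alone, which held for 9 of the 10 members among 14860 genes so annotated in all. Bax had no such probe set and was not analysed here. Each of the other 9 members had exactly 1 probe set.

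RNA came from 4 MMTV-PyVT/HdhQ111/Q111 tumours, whose huntingtin carries 111 glutamines on both copies of the gene, and from 4 MMTV-PyVT/HdhQ7/Q7 tumours, whose huntingtin carries 7. All mice were of the FVB/CD1 strain and carried the polyoma virus middle T oncogene under the MMTV promoter, which is active in the mammary epithelium, so the tumours of both genotypes had the same driver and received no treatment. Each tumour was hybridized to 1 Affymetrix Mouse Exon 1.0 ST array, which reads transcripts with probes along the exons, and the deposited values were log2 signals. Tumours of both genotypes were sampled at the same interval after detection, and since the study describes an earlier onset in HdhQ111/Q111 mice, age and genotype cannot be told apart. No source used here states that the 4 tumours of a genotype came from 4 mice, so the p-values measure the spread between tumours. Whole tumours were profiled, so fewer cells of a type and less RNA per cell cannot be told apart.

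The BCL2 family governs the mitochondrial route to apoptosis. The effectors BAX and BAK open pores in the outer mitochondrial membrane, through which cytochrome c leaves and starts the caspase cascade. The guardians BCL2, BCL-XL and MCL1 hold the effectors in check, and BH3-only proteins carry signals of DNA damage, lost growth factor, lost attachment or death receptor ligation by binding guardians or effectors. In the mammary gland the family is known for the removal of epithelium at involution and for the death of cells that fill the lumen, in which BIM takes part. The study asked whether apoptosis and proliferation differed between the tumours, and the family genes address the transcripts of that pathway.

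Bcl2l11 and Bbc3 are known targets of FoxO factors, which PI3 kinase and AKT signalling keep out of the nucleus. The sequences around the FoxO motif in their promoters are printed to show the element that these 2 members share and that no window of the other members searched held. They are RefSeq sequences of build GRCm38.p6, 5′ to 3′ on the plus strand, which is the strand of both genes, and the capitals mark GTAAACA or its reverse complement. The Bcl2l11 stretch is chr2:128125788-128125907, with the motif 227 to 221 bases before the annotated start, and the Bbc3 stretch is chr7:16310046-16310165, with the motif on the minus strand 167 to 161 bases before a start.
Bcl2l11: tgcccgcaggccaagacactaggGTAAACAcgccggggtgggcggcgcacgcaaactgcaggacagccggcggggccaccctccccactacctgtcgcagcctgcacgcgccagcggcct
Bbc3: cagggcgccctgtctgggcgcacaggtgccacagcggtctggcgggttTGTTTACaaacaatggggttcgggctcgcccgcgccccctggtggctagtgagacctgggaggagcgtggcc

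Windows of 300 bases, from 250 before to 50 after an annotated start, were searched on both strands for 10 motifs in 15 windows of 9 member genes. The window of Pmaip1 was not used. GTAAACA lies in 3.65% of all 32851 windows in the table. The E-box CACGTG, which reads the same on both strands, occurred in windows of Bbc3 and Bax and in 7.15% of all windows. A p53 half-site occurred in the Bax window and in 8.36% of all. No member window held the cAMP response element TGACGTCA (1.79% of all windows), the STAT motif TTCNNNGAA (8.3%), the CHOP motif TGCAAT (8.4%), the E2F motifs TTTGGCGC (0.514%) and TTTCCCGC (1.07%), the interferon factor motif of GAAA, NN and GAAA (3.44%) or the NF-kB motif of GGGA, N and TTTCC (0.411%). FoxO and E-box matches did not overlap. A match is a run of letters and was not tested as a binding site.

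Array medians lay between 7.58 and 7.74 log2 signal and were on average 0.07 higher in HdhQ111/Q111 tumours, and arrays correlated with r between 0.984 and 0.990. Htt, the targeted gene, had a log2 signal of 8.81 ± 0.12 in HdhQ111/Q111 tumours and 9.52 ± 0.09 in HdhQ7/Q7 tumours (SD, n = 4 each). The difference was -0.70 (unadjusted p = 2.1e-05 and adjusted p = 0.0700 from limma), and the genotypes did not overlap (8.65 to 8.92 against 9.43 to 9.60). Luminal epithelial markers were present on every array, and their summed linear signal was 21794 to 23125 in HdhQ111/Q111 tumours and 21041 to 24513 in HdhQ7/Q7 tumours. The genotypes lay apart in the sum of 7 fibroblast markers, 5977 to 7823 in HdhQ111/Q111 tumours and 3248 to 5026 in HdhQ7/Q7 tumours, and in that of 7 macrophage markers, 4320 to 5062 in HdhQ111/Q111 tumours and 3740 to 3899 in HdhQ7/Q7 tumours. The sum of 6 adipocyte markers ranged from 714 to 8731 in HdhQ111/Q111 tumours and from 564 to 1176 in HdhQ7/Q7 tumours, and HdhQ111/Q111 replicate 1 was the highest. That of 4 skeletal muscle markers was 404, 462, 4034 and 4930 in HdhQ111/Q111 tumours and 518 to 1486 in HdhQ7/Q7 tumours, so that HdhQ111/Q111 replicates 3 and 4 stood apart. The part of this cell composition in the member values was not tested.

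Across the 9 measured members, differences between the genotypes were small. Of these members 2 were higher and 7 lower in HdhQ111/Q111 tumours, and the median log2 fold change was -0.07, beside 0.02 over all 23332 probe sets. With a tumour left out in turn the median lay between -0.11 and -0.02, and the split was 4 higher and 5 lower without HdhQ111/Q111 replicate 2. With centred arrays 1 was higher and 8 lower, with a median of -0.14, beside -0.05 over all probe sets. No member passed the study's thresholds, which ask for a 1.5-fold difference and an unadjusted p no larger than 0.05 and which 1.36% of all probe sets passed in limma, and the methods' t-test also placed 0 members past them. At an unadjusted p under 0.05 limma found 1 member, Pmaip1, where 7.88% of all probe sets were found (5.20% higher and 2.68% lower). After Benjamini-Hochberg adjustment across the whole array none had a p under 0.05, as against 0.0129% of all probe sets. The groups did not overlap in 1 member, again Pmaip1, and in 4.43% of all probe sets. A single member among 9 stands near these background shares. No 95% confidence interval of a member reached a 1.5-fold difference in either direction (0.58 on the log2 scale). The widest bound was -0.53, for Bcl2. In some alternatives, 5 of the 8 fits with a tumour left out among them, the interval of 1 member did reach it.

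**Figure D1:**
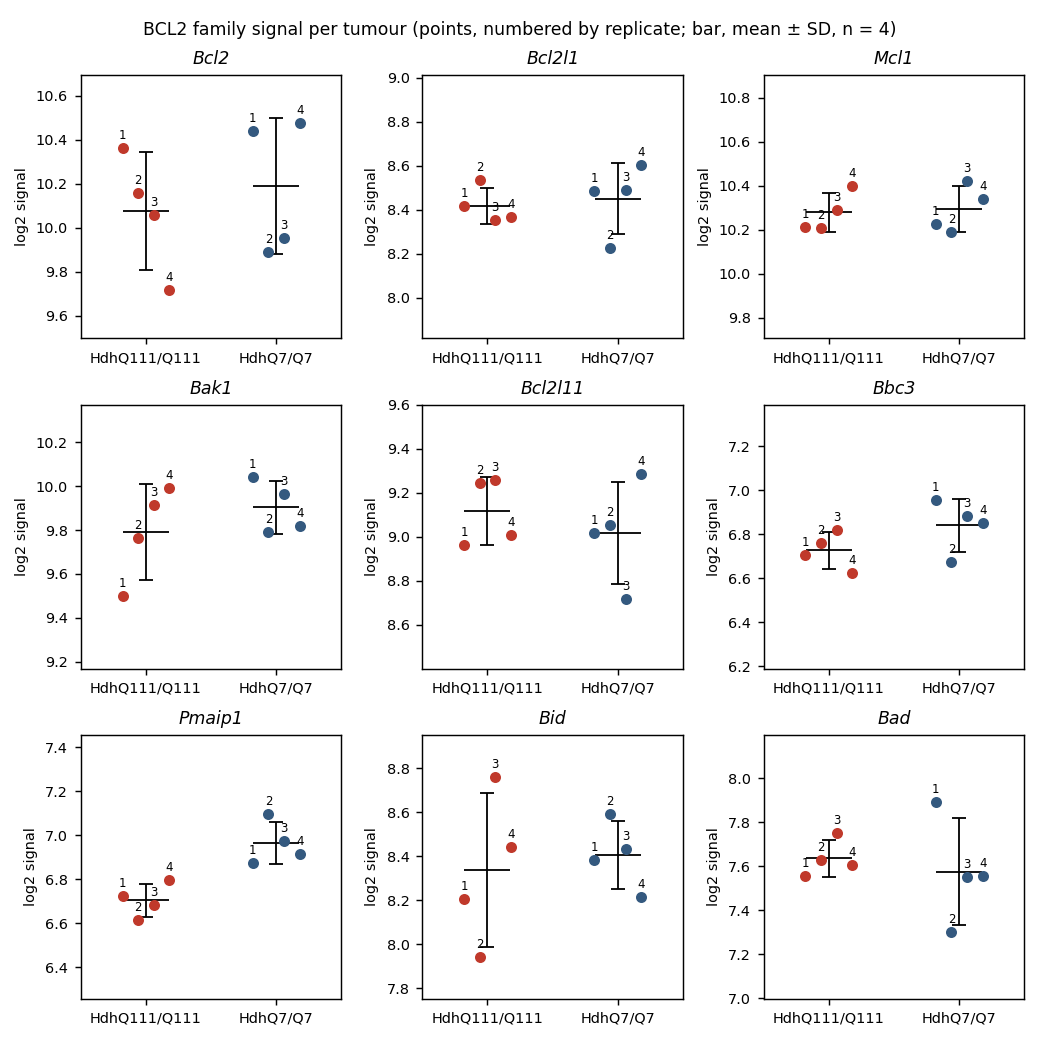
Log2 signal of the 9 measured BCL2 family members in each tumour, with HdhQ111/Q111 (red) left of HdhQ7/Q7 (blue), numbers for replicates and bars for the mean ± SD (n = 4). Every panel spans the same log2 distance, and only in Pmaip1 do all HdhQ111/Q111 tumours (6.62 to 6.80) lie below all HdhQ7/Q7 tumours (6.88 to 7.10).

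Bcl2, the founding guardian, had log2 signals of 10.36, 10.16, 10.06 and 9.72 in HdhQ111/Q111 tumours and 10.44, 9.89, 9.95 and 10.48 in HdhQ7/Q7 tumours (replicates 1 to 4). The HdhQ7/Q7 tumours formed a high and a low pair. The HdhQ111/Q111 tumours all lay below the high pair, and replicate 4 of them, below the low pair, was the lowest of all 8. The means were 10.08 ± 0.27 in HdhQ111/Q111 tumours and 10.19 ± 0.31 in HdhQ7/Q7 tumours (SD, n = 4 each), a log2 fold change of -0.11 (SE 0.18, 95% confidence interval -0.53 to 0.30, adjusted p = 0.887 from limma). Bcl2 was the most variable member, with a within-genotype SD of 0.29.

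Bcl2l1 encodes BCL-XL, the guardian on which many epithelial cells depend. Its log2 signals were 8.42, 8.54, 8.36 and 8.37 in HdhQ111/Q111 tumours and 8.48, 8.23, 8.49 and 8.61 in HdhQ7/Q7 tumours, and the HdhQ111/Q111 values lay inside the range of the others. The log2 fold change was -0.03 (SE 0.09, 95% confidence interval -0.24 to 0.18, adjusted p = 0.947 from limma). Mcl1 encodes a short-lived guardian whose protein is lost quickly when translation stops. Its log2 signals were 10.22, 10.21, 10.29 and 10.40 in HdhQ111/Q111 tumours and 10.23, 10.19, 10.42 and 10.34 in HdhQ7/Q7 tumours. The 8 tumours lay within 0.23 of each other, the smallest range of any member, and the log2 fold change was -0.02 (SE 0.08, 95% confidence interval -0.20 to 0.16, adjusted p = 0.974 from limma). None of the 3 guardians passed the test, and in each the tumours of the genotypes overlapped.

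Bak1 encodes BAK, the effector that resides on mitochondria and is held by MCL1 and BCL-XL. It had log2 signals of 9.50, 9.76, 9.91 and 9.99 in HdhQ111/Q111 tumours and 10.04, 9.79, 9.96 and 9.82 in HdhQ7/Q7 tumours. HdhQ111/Q111 replicate 1 was the lowest of the 8 tumours and the others overlapped. The means were 9.79 ± 0.22 in HdhQ111/Q111 tumours and 9.90 ± 0.12 in HdhQ7/Q7 tumours (SD, n = 4 each), a log2 fold change of -0.11 (SE 0.12, 95% confidence interval -0.38 to 0.16, adjusted p = 0.827 from limma).

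The log2 signal of Bcl2 minus that of Bak1, a difference within each array that does not move with the scaling of the array, was 0.87, 0.40, 0.14 and -0.27 in HdhQ111/Q111 tumours and 0.40, 0.10, -0.01 and 0.66 in HdhQ7/Q7 tumours. Only its variation between tumours can be read, since the levels of 2 probe sets are not comparable. The HdhQ111/Q111 tumours held both the highest and the lowest value, since replicate 1 was high in Bcl2 and lowest in Bak1 and replicate 4 the other way round. The mean was 0.28 ± 0.48 in HdhQ111/Q111 tumours and 0.29 ± 0.30 in HdhQ7/Q7 tumours (SD, n = 4 each). This pair was chosen after the values were seen, in place of Bcl2 and Bax, and no test was made.

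Pmaip1 encodes NOXA, a BH3-only protein that binds MCL1 and is induced by p53 and by stress. It had log2 signals of 6.72, 6.62, 6.68 and 6.80 in HdhQ111/Q111 tumours and 6.88, 7.10, 6.97 and 6.92 in HdhQ7/Q7 tumours. Every HdhQ111/Q111 tumour was below every HdhQ7/Q7 tumour. The means were 6.70 ± 0.07 in HdhQ111/Q111 tumours and 6.97 ± 0.10 in HdhQ7/Q7 tumours (SD, n = 4 each), a log2 fold change of -0.26, or 1.20-fold lower (SE 0.07, 95% confidence interval -0.43 to -0.09). Limma gave an unadjusted p of 0.00713 and an adjusted p of 0.518, so the difference did not pass the correction. The two-sided exact permutation test gave p = 0.0286, the smallest that 4 tumours against 4 allow. This value follows from the lack of overlap and is no separate evidence. For the other measured members the same exact test gave p between 0.171 and 0.8. Of all probe sets 2.68% were lower at an unadjusted p under 0.05, and 1.72% were lower without overlap.

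The Pmaip1 probe set was dim. Like that of Bbc3, it was among the 40% of probe sets with the lowest mean signal, and the table used here gives no detection call. Some T and NK cell markers, of which 8 of 9 measured were equally dim, were also lower. Of the 9, 6 were lower and 4 of these at an unadjusted p under 0.05, among them Gzmb, the granzyme of cytotoxic cells (-0.51, SE 0.14, adjusted p = 0.505 from limma), and Cd8a, the CD8 alpha chain (-0.44, SE 0.11, adjusted p = 0.426 from limma). The summed linear signal of the 9 markers was 653 to 743 in HdhQ111/Q111 tumours and 741 to 886 in HdhQ7/Q7 tumours, so that the genotypes just overlapped. The part of these cells in the Pmaip1 signal was not tested.

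Bbc3 encodes PUMA, a BH3-only protein that p53 induces. Its log2 signals were 6.70, 6.76, 6.82 and 6.62 in HdhQ111/Q111 tumours and 6.95, 6.67, 6.88 and 6.85 in HdhQ7/Q7 tumours. All but replicate 2 of the HdhQ7/Q7 tumours lay above every HdhQ111/Q111 tumour. The log2 fold change was -0.11 (SE 0.08, 95% confidence interval -0.30 to 0.07, unadjusted p = 0.197 and adjusted p = 0.740 from limma).

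Bcl2l11 encodes BIM, which binds all guardians and takes part in the death of mammary cells that lose attachment. It had log2 signals of 8.96, 9.24, 9.26 and 9.01 in HdhQ111/Q111 tumours and 9.02, 9.05, 8.72 and 9.28 in HdhQ7/Q7 tumours. HdhQ7/Q7 tumours held both ends of the range, replicate 3 the lowest and replicate 4 the highest. The log2 fold change was 0.10 (SE 0.13, 95% confidence interval -0.19 to 0.40, adjusted p = 0.861 from limma), and without HdhQ7/Q7 replicate 4 it was 0.19 and without replicate 3 of that genotype 0.00027. Neither Bcl2l11 nor Bbc3, the other member with the FoxO motif, had an unadjusted p under 0.05 in limma. The part of FoxO factors in their signals was not tested.

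Bid, which caspase-8 cleaves to link death receptors to mitochondria, had log2 signals of 8.20, 7.94, 8.76 and 8.44 in HdhQ111/Q111 tumours and 8.38, 8.59, 8.43 and 8.21 in HdhQ7/Q7 tumours. The HdhQ111/Q111 tumours spanned more than the others and held both the lowest and the highest of the 8 values. The means were 8.34 ± 0.35 in HdhQ111/Q111 tumours and 8.40 ± 0.16 in HdhQ7/Q7 tumours (SD, n = 4 each), with a log2 fold change of -0.07 (SE 0.17, 95% confidence interval -0.45 to 0.32, adjusted p = 0.935 from limma). Bad, which AKT phosphorylates and 14-3-3 proteins then sequester, had log2 signals of 7.56, 7.63, 7.75 and 7.60 in HdhQ111/Q111 tumours and 7.89, 7.30, 7.55 and 7.56 in HdhQ7/Q7 tumours. Here the HdhQ7/Q7 tumours were the wider group, with replicate 1 the highest and replicate 2 the lowest. The log2 fold change was 0.06 (SE 0.12, 95% confidence interval -0.21 to 0.34, adjusted p = 0.915 from limma), and with each array centred on its median it was -0.01.

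**Figure D2:**
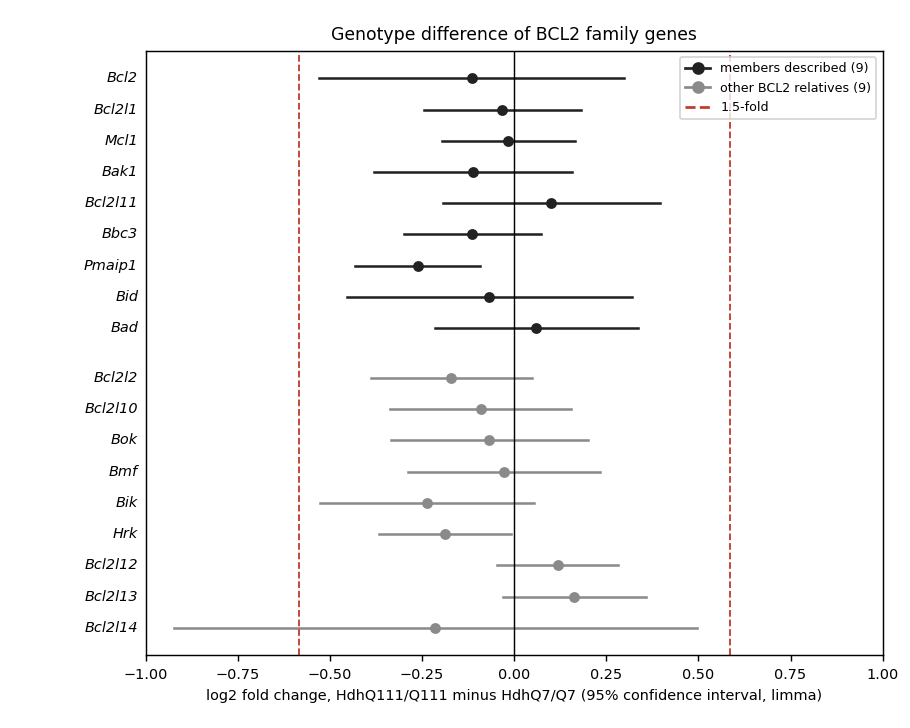
Log2 fold change (HdhQ111/Q111 minus HdhQ7/Q7, n = 4 each) of the 9 members (black) and of 9 further BCL2 relatives (grey), with 95% confidence intervals from limma and dashed lines at 1.5-fold. All member intervals lie inside the dashed lines and only that of Pmaip1 (-0.43 to -0.09) leaves out 0, while the interval of Bcl2l14 (-0.92 to 0.50) crosses the lower line.

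The members did not all have their highest or their lowest value in the same tumour. The highest of the 8 values lay in HdhQ111/Q111 replicate 3 for 1 member, Bid, in HdhQ7/Q7 replicates 1 and 4 for 3 members each and in HdhQ7/Q7 replicates 2 and 3 for 1 member each. The lowest lay in HdhQ111/Q111 replicates 2 and 4 for 2 members each, in HdhQ111/Q111 replicate 1 and HdhQ7/Q7 replicate 3 for 1 member each, and in HdhQ7/Q7 replicate 2 for 3 members, namely Bcl2l1, Mcl1 and Bad. Of all probe sets, 9.94%, 9.62%, 20.4% and 14.5% were highest in HdhQ111/Q111 replicates 1 to 4. In HdhQ7/Q7 replicates 1 to 4 the shares were 11.1%, 8.98%, 10.4% and 15%. The shares lowest in each were 10.4%, 13.8%, 10.9% and 9.5% for HdhQ111/Q111 and 12.8%, 16%, 11.8% and 14.8% for HdhQ7/Q7. The within-genotype SD of the members ranged from 0.09 for Pmaip1 to 0.29 for Bcl2. Its median was 0.18, beside 0.16 over all probe sets, and 5 of 9 members were above the median of all.

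The genes whose signal followed Bcl2 most closely over the 8 tumours were Irak2, a kinase of Toll-like and interleukin-1 receptor signalling (Pearson r = 0.99, Spearman rho = 1), Slc25a23, a mitochondrial ATP-magnesium and phosphate carrier (r = 0.98), and Enah, an actin regulator (r = 0.98). For Bcl2l11 they were Ndst3, a heparan sulphate sulphotransferase (r = 0.94), Tmem64, a membrane protein (r = 0.94), and Pycard, the inflammasome adaptor (r = 0.93). Each was picked as the nearest of 14995 probe sets over only 8 tumours that share arrays and tissue composition, so these coefficients describe these tumours and carry no test.

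Further relatives of the family were read in the same fit. Of 14 listed, 9 were measured, 2 of them higher and 7 lower in HdhQ111/Q111 tumours, with a median log2 fold change of -0.09, and 1 had an unadjusted p under 0.05. This was Hrk, a BH3-only gene known from neurons deprived of growth factor. Its log2 signals were 9.54, 9.59, 9.61 and 9.75 in HdhQ111/Q111 tumours and 9.95, 9.73, 9.83 and 9.73 in HdhQ7/Q7 tumours, where only HdhQ111/Q111 replicate 4 entered the range of the others. The log2 fold change was -0.19 (SE 0.08, unadjusted p = 0.0431 and adjusted p = 0.630 from limma). Hrk lies on chromosome 5, as Htt does, at a distance of 83.26 Mb in GRCm38.p6, whereas no member lies there. The unadjusted p of Hrk was not under 0.05 without HdhQ111/Q111 replicate 1, 2 or 3 or HdhQ7/Q7 replicate 1 or 3, with values up to 0.117. Of the remaining guardians, Bcl2l2, which encodes BCL-W, had a log2 fold change of -0.17 (adjusted p = 0.693 from limma) and Bcl2l10 one of -0.09. The BH3-only genes Bik and Bmf had log2 fold changes of -0.24 (adjusted p = 0.680 from limma) and -0.03. The widest interval in the family was that of Bcl2l14 (-0.92 to 0.50), whose signal reached 8.10 in HdhQ111/Q111 replicate 2 and 8.33 in HdhQ7/Q7 replicate 3, against 6.92 to 7.52 in the other 6 tumours.

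The genes around the family were read from lists, in which 75 of 93 listed genes were measured. Of these 75, relatives included, 49 were higher and 26 lower in HdhQ111/Q111 tumours, with a median log2 fold change of 0.06. Of all 23332 probe sets 13165 were higher and 10167 lower, with a median of 0.02. The directions depended on the scaling of the arrays, since centred arrays gave fewer higher genes in several lists, as given below. None of the 75 passed the study's thresholds in limma, 4 had an unadjusted p under 0.05 (1 higher and 3 lower) and none an adjusted p under 0.05. The share of all probe sets at that unadjusted p was 7.88% (5.20% higher and 2.68% lower). The count of 4 moved to 8 without HdhQ111/Q111 replicate 1, 2 without HdhQ111/Q111 replicate 4 and 1 without HdhQ7/Q7 replicate 1.

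**Figure D3:**
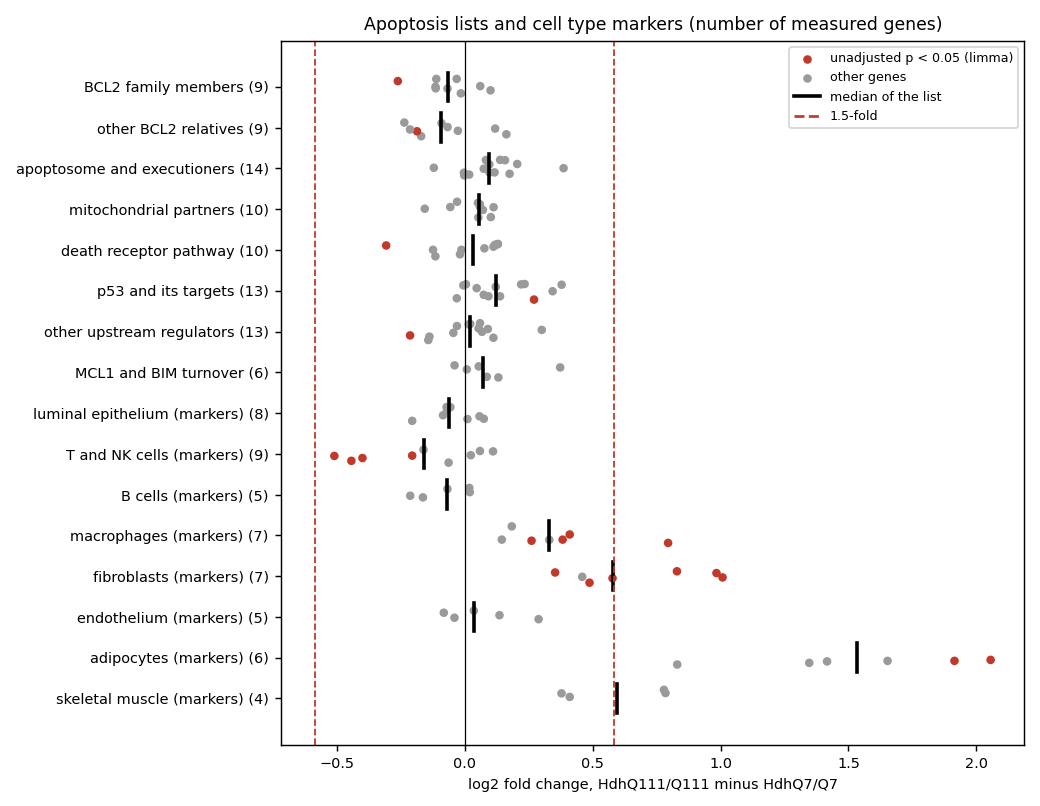
Log2 fold change (HdhQ111/Q111 minus HdhQ7/Q7) of each measured gene of the family, of the lists around it and of cell type markers, with red points for an unadjusted p under 0.05 in limma, black bars for medians and dashed lines at 1.5-fold. The apoptosis lists stay inside 1.5-fold, while some markers of fibroblasts (median 0.58), skeletal muscle (median 0.59), adipocytes (median 1.53, and 0.82 without HdhQ111/Q111 replicate 1) and macrophages (Mrc1, 0.79) extend beyond it.

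Downstream of the mitochondria, 11 of 14 measured genes of the apoptosome, executioner caspases and their inhibitors were higher and 3 lower, with a median log2 fold change of 0.10 and none at an unadjusted p under 0.05. With arrays centred on their medians the list's median was 0.03. The largest difference was that of Birc5, the gene of survivin, which serves mitosis as well as caspase inhibition, with log2 signals of 7.79, 7.97, 8.55 and 8.67 in HdhQ111/Q111 tumours and 8.02, 7.95, 7.89 and 7.58 in HdhQ7/Q7 tumours. Replicates 3 and 4 of the HdhQ111/Q111 tumours were high and the other 2 lay among the HdhQ7/Q7 tumours (log2 fold change 0.39, SE 0.20, unadjusted p = 0.0939 and adjusted p = 0.679 from limma). Cdc20, a mitotic activator of the ubiquitin ligase that also acts on BIM, was likewise high in those 2 tumours, at 9.89 and 9.85, against 9.25 and 9.37 in replicates 1 and 2 and 8.90 to 9.50 in HdhQ7/Q7 tumours (0.37, SE 0.18, adjusted p = 0.652 from limma). Apaf1, the scaffold of the apoptosome, differed by 0.18 (unadjusted p = 0.0526 and adjusted p = 0.633 from limma) and Casp9, the caspase it activates, by -0.00 (unadjusted p = 0.965). The unadjusted p of Apaf1 was under 0.05 with the methods' t-test, and in limma with 1 row per gene or without HdhQ111/Q111 replicate 1. The skeletal muscle sum was high in HdhQ111/Q111 replicates 3 and 4 as well, and its part in the values of these genes was not tested. Without HdhQ111/Q111 replicate 1 limma's unadjusted p was 0.0209 for Birc5 and 0.0274 for Cdc20. Without HdhQ111/Q111 replicate 3 it was 0.224 for Birc5 and 0.186 for Cdc20, and without replicate 4 of that genotype 0.239 and 0.179. Of the 6 measured genes of MCL1 and BIM turnover 5 were higher, none at an unadjusted p under 0.05, and 3 with centred arrays.

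Mitochondrial partners, the VDAC channels, BNIP3 proteins and fusion and fission genes, numbered 10, of which 7 were higher and 3 lower with a median log2 fold change of 0.06, but 3 higher and 7 lower with centred arrays (median -0.01). Becn1, the autophagy gene whose protein BCL2 binds, had the largest difference, -0.16 (unadjusted p = 0.0934 and adjusted p = 0.679 from limma). Its unadjusted p from limma was 0.0220 with centred arrays but 0.225 without HdhQ111/Q111 replicate 2. In the death receptor list 5 genes were higher and 5 lower, and 1 had an unadjusted p under 0.05. This was Tnfsf10, the gene of the ligand TRAIL, with log2 signals of 8.42, 8.67, 8.71 and 8.60 in HdhQ111/Q111 tumours and 9.08, 8.64, 9.11 and 8.80 in HdhQ7/Q7 tumours. HdhQ7/Q7 replicate 2 lay among the HdhQ111/Q111 tumours and the other 3 above them (-0.31, SE 0.12, unadjusted p = 0.0341 and adjusted p = 0.617 from limma). The unadjusted p was no longer under 0.05 with the methods' t-test or without HdhQ111/Q111 replicate 1 or 4 or HdhQ7/Q7 replicate 1 or 3, with values up to 0.0921. Casp8, which cleaves BID, differed by 0.13 (adjusted p = 0.771 from limma).

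Among other regulators of the family 8 of 13 were higher, but 3 of 13 with centred arrays. Foxo1, a factor that binds motifs such as those printed above, had log2 signals of 10.05, 10.01, 9.85 and 9.87 in HdhQ111/Q111 tumours and 10.23, 9.98, 10.30 and 10.13 in HdhQ7/Q7 tumours, where only HdhQ7/Q7 replicate 2 lay among the HdhQ111/Q111 tumours. Its log2 fold change was -0.21 (SE 0.09, unadjusted p = 0.0415 and adjusted p = 0.627 from limma), and the unadjusted p was not under 0.05 without HdhQ111/Q111 replicate 3 or 4 or HdhQ7/Q7 replicate 1, 3 or 4, with values up to 0.112. Foxo3 differed by -0.14 and Foxo4 by 0.09. The kinase gene Akt1 differed by 0.11 and Myc, which primes cells for apoptosis as well as growth, by 0.30 (unadjusted p = 0.0663 and adjusted p = 0.642 from limma).

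In the p53 list 11 of 13 measured genes were higher and 2 lower in HdhQ111/Q111 tumours, with a median log2 fold change of 0.12. This value moved with single tumours and with the scaling of the arrays. HdhQ7/Q7 replicate 3 had the lowest of the 8 signals in 10 of the 13 genes, whereas it was lowest in 11.8% of all probe sets. Without it 6 were higher and 7 lower, and the median was -0.00081. Without HdhQ111/Q111 replicate 2 the median was 0.05, with 9 higher and 4 lower. With all tumours and centred arrays it was also 0.05, again with 9 higher and 4 lower. Cdkn1a, which encodes the cell cycle inhibitor p21, had log2 signals of 9.95 to 10.65 in HdhQ111/Q111 tumours and 10.16 to 10.23 in HdhQ7/Q7 tumours other than replicate 3, which had 9.47. Eda2r, a receptor of the TNF receptor family, had 6.38 to 6.85 in HdhQ111/Q111 tumours and 6.63 to 6.79 in the same 3 HdhQ7/Q7 tumours, against 5.63 in replicate 3. Fas, a death receptor gene that p53 also induces and that belongs to another list, had 6.86 to 7.37 in HdhQ111/Q111 tumours and 6.91 to 7.60 in these 3 HdhQ7/Q7 tumours, and its 6.47 in replicate 3 was also the lowest value.

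The BH3-only targets of p53 did not share this pattern. In HdhQ7/Q7 replicate 3, Bbc3 was 6.88 and Pmaip1 6.97, the second highest of the 8 tumours for each, while Bcl2l11 was at its lowest. HdhQ111/Q111 replicate 2 was highest in 6 of the 13 genes of the p53 list, and in 9.62% of all probe sets, and it held the lowest Pmaip1 signal. This description by tumour was chosen after the values were seen, and no test was made. Perp, an adhesion gene that p53 and p63 induce, was the list's gene at an unadjusted p under 0.05, with log2 signals of 11.47, 11.72, 11.58 and 11.65 in HdhQ111/Q111 tumours and 11.47, 11.27, 11.45 and 11.13 in HdhQ7/Q7 tumours. The genotypes met only at replicate 1 of each (0.27, SE 0.10, unadjusted p = 0.0226 and adjusted p = 0.594 from limma), and the unadjusted p was not under 0.05 with centred arrays or without HdhQ111/Q111 replicate 2 or 4 or HdhQ7/Q7 replicate 2 or 4.

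**Figure D4:**
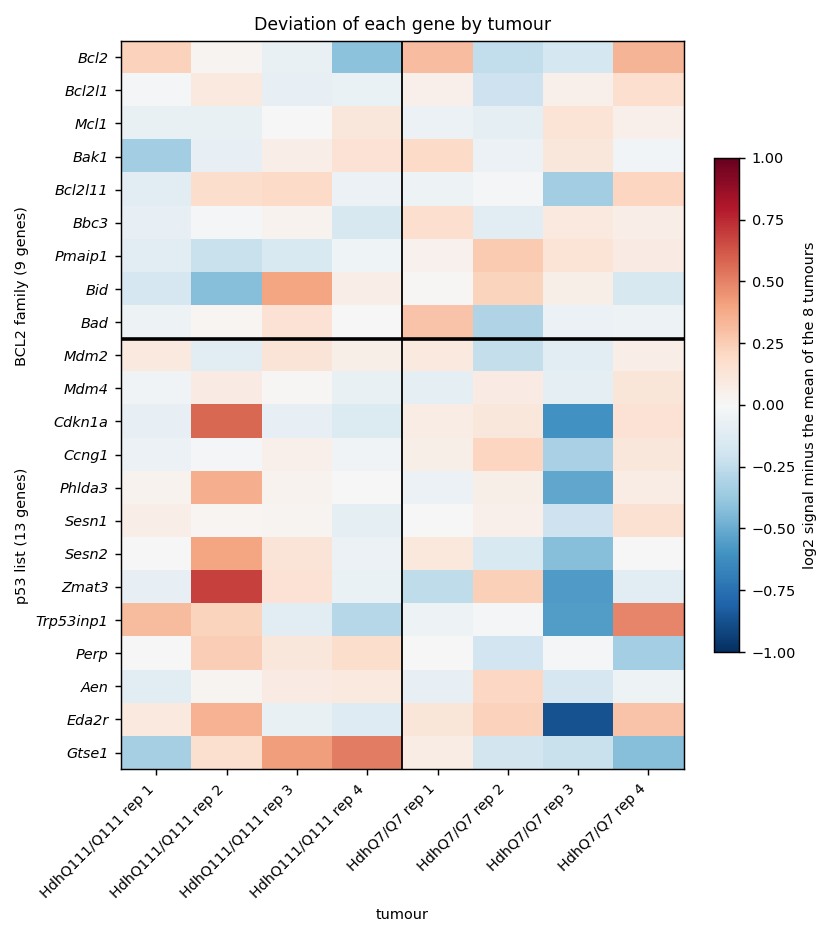
Log2 signal of each gene minus its mean over the 8 tumours, for the 9 members (upper rows) and 13 genes of the p53 list (lower rows), with HdhQ111/Q111 tumours in the left and HdhQ7/Q7 tumours in the right columns. HdhQ7/Q7 replicate 3 is the lowest tumour in 10 of the 13 p53 list genes, and the dim probe sets of Bbc3 and Pmaip1 are not low in it.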

How the data were processed

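The deposited values were log2 signals per probe set of 8 Affymetrix Mouse Exon 1.0 ST arrays, made by the authors with the core probe set definitions of build mm9 per the labels. The sources used here do not give the normalization of this table, whereas the methods describe quantile normalization and an antigenomic background correction for the gene analysis of the study. The values were used as deposited, without a filter, and a single gene symbol was given for 14996 of 23332 probe sets. Differences between genotypes came from limma 3.58.1 under R 4.3.3 (linear model and moderated variance, two-sided, Benjamini-Hochberg over all probe sets), beside an exact permutation test over the 70 labellings for single members. The methods' t-test was an alternative. The steps were tested on simulated data. Scan dates and slides were not used here. The number of arrays limits the precision.

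Members and lists were chosen with earlier results of these data known. The genes named were all members, up to 2 genes per list and direction at an unadjusted p under 0.05, or else the gene of the list with the largest difference. Bcl2l2, Bcl2l10, Bik, Bmf, Bcl2l14, Apaf1, Casp9, Casp8, Foxo3, Foxo4, Akt1, Myc, Cdkn1a, Eda2r and Fas were named for their role or after their values were seen. Python 3.11.15 and matplotlib 3.10.9 drew the plots.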

Additional observations from a re-analysis of the deposited data

Results flagged for a closer look

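The 53 genes examined were the measured members, genes taken by the naming rule, the p53 list and genes named for their role or after their values were seen. Htt and the genes picked for likeness were left out. Of 106 groups of 4 tumours, 2 for each gene, 7 held a tumour far from the other 3. Chance gives about 1 in 20 groups, a rate that need not hold for genes named after their values were seen. No such tumour was found in a BCL2 family member. In HdhQ111/Q111 replicate 2, the log2 signal of Cdkn1a was 10.65, against 9.95 in the lowest of the other HdhQ111/Q111 tumours, which lay close together, that of Phlda3, a p53 target that restrains AKT, was 10.08 against 9.72 to 9.76, and that of Myc was 10.43 against 10.83 to 10.90. In HdhQ7/Q7 replicate 3, Cdkn1a was 9.47 against 10.16 to 10.23 in the other HdhQ7/Q7 tumours and Eda2r 5.63 against 6.63 to 6.79. Akt1 was 11.01 in HdhQ7/Q7 replicate 4 against 11.18 to 11.21 in the other HdhQ7/Q7 tumours. Mrc1, a macrophage marker, was 7.55 in HdhQ111/Q111 replicate 2 against 8.65 to 8.69 in the other HdhQ111/Q111 tumours.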

How the results depend on the processing

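Over 142 repeats of the member fits, the direction and the side of the threshold held in 133 and the direction reversed in 9, none of which involved Pmaip1, Bak1, Bcl2l11 or Bbc3. The repeats with the t-test, a variance trend, the replicate block, 1 row per gene or the dimmest probe sets removed reuse the same group means. Their direction was therefore fixed in advance, and the 9 reversals lay among the other repeats, so the count of 133 overstates how stable the directions are. The log2 fold change of Pmaip1 stayed between -0.33 and -0.22 over 15 alternatives (unadjusted p 0.00235 to 0.0325, adjusted p 0.432 to 0.774, limma or the methods' t-test). That of Bad was -0.0090 after quantile normalization and -0.0076 after median centring. With each tumour left out in turn the value ranged from -0.214 to 0.0042 for Bcl2, -0.107 to 0.0196 for Bcl2l1, -0.0557 to 0.0266 for Mcl1, -0.209 to 0.0643 for Bid and -0.0306 to 0.166 for Bad. Without the dimmest 40% of probe sets Pmaip1 and Bbc3 dropped out, so that of 7 members 0 had an unadjusted p under 0.05 and 0 lay without overlap. Members without overlap numbered 1 to 2 with a tumour left out, Bad joining without HdhQ7/Q7 replicate 1 and Bbc3 without HdhQ7/Q7 replicate 2. Non-overlap is easier to reach with fewer tumours, and its share over all probe sets was not counted for any such fit. No member passed the study's thresholds in any alternative. The interval of 1 of 9 members reached 1.5-fold with the t-test, with median centring, without HdhQ111/Q111 replicate 1, 2 or 3 and without HdhQ7/Q7 replicate 2 or 3, and without HdhQ111/Q111 replicate 1 and HdhQ7/Q7 replicate 3 together. In the lists 4 genes had an unadjusted p under 0.05, 1 to 8 with a tumour left out. With the replicate number as a block that count was 1, the p53 target Zmat3, while Hrk, Tnfsf10, Perp and Foxo1 were no longer under 0.05 (limma's unadjusted p 0.0575 to 0.103). Pmaip1 was still the single member under the block (-0.26, lowest adjusted p of a member 0.708), although deviations of same-numbered tumours correlated with r of only -0.19 to 0.03. The causes were not tested. Bcl2 minus Bax and other probe sets of a member could not be computed, since Bax and second probe sets were not analysed here. Without HdhQ111/Q111 replicate 1 and HdhQ7/Q7 replicate 3 together, an alternative chosen after seeing the data, Pmaip1 was still the only member at an unadjusted p under 0.05 and without overlap.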
